A study of Oryza sativa Japonica Group with 6 samples.

Results

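NF-YA genes encode the subunit of the NF-Y transcription factor that recognises the CCAAT box of promoters. They were followed here in endosperm, the part of the rice grain that stores starch and protein. The family was taken as a list of 10 RAP gene IDs. Of these, 9 had a row among the 93655 features of the expression table, and OS02G0776501 had none and was not analysed here. The ID gives the chromosome: 4 of the 9 lie on chromosome 3, 2 on chromosome 7, 1 on chromosome 8 and 2 on chromosome 12. IDs stand in the table without names and the numbering of NF-YA genes differs between sources, so the genes are called by their IDs. RNA was sequenced from endosperm of Oryza sativa Japonica Group at 7 days after pollination. There were 3 libraries of the nf-yc11 mutant and 3 of the wild type (WT), and the series title names the cultivar ZH11. The labels give neither the locus and kind of the mutation nor the number of plants behind a library. The comparison implied by the design is of transcript levels in the mutant with those in WT.

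NF-Y works as a heterotrimer. An NF-YB and an NF-YC subunit pair through their histone folds, the pair takes up an NF-YA subunit, and NF-YA makes the contacts with the CCAAT sequence. Plants carry many genes for each subunit, so that the trimer that can form depends on which of them are expressed together, and NF-YA transcripts are known targets of the microRNA family miR169. In rice endosperm the NF-YB and NF-YC subunits, NF-YB1 and NF-YC12 above all, are the ones known for acting on grain filling.

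The mutant is named after NF-YC11, taken here as OS05G0304800, a pairing of ID and symbol from general knowledge of rice genes. The labels give no locus, so whether this is the mutated gene could not be checked. OS05G0304800 was still transcribed in the mutant, at a level 1.15-fold lower (log2 change −0.20, adjusted p = 0.0037, limma). NF-YC12, reported below, fell far more. OS05G0304800 stood at 106, 111 and 112 FPKM in the nf-yc11 libraries and at 125, 124 and 130 FPKM in the WT libraries. FPKM scales the read number by gene length and library size. These levels do not show whether the labels are right, since a mutation can leave a transcript in place. The totals behind the values were 15735968 to 16989039 reads in nf-yc11 libraries and 14593215 to 21984785 reads in WT libraries, and the whole reads behind each value were recovered from the table. Of 17 marker genes, all were above 0 in every library. The 9 starchy endosperm markers summed to 28130 to 28450 FPKM in nf-yc11 and 32910 to 33690 FPKM in WT. Most of this was the glutelin genes GluA1 and GluA2, averaging 13400 and 10870 FPKM in nf-yc11 and 15730 and 12600 FPKM in WT. Of the 9, 1 was called higher, 7 lower and 1 not called (limma, adjusted p under 0.05). Among the 7 was NF-YB1, itself an NF-Y subunit gene reported again below. By the same rule 49.1% of all features tested were called, 29.8% higher and 19.3% lower. The 4 aleurone and embryo markers summed to 5157 to 5555 FPKM in nf-yc11 and 4514 to 4861 FPKM in WT (1 higher, 2 lower, 1 not called). The 3 green pericarp markers summed to 1380 to 1514 FPKM in nf-yc11 and 1559 to 1576 FPKM in WT (0 higher, 1 lower, 2 not called). The embryo and meristem gene OSH1 lay between 0.735 and 1.33 FPKM in nf-yc11 and between 0.654 and 1.10 FPKM in WT. The part of these shifts in the values below was not tested, and fewer cells of a type cannot be told apart from less RNA per cell in such samples.

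All 9 measured NF-YA genes were transcribed in WT endosperm, each with a mean above 1 FPKM in both genotypes. They fell into 5 genes with means of 19.6 to 79.4 FPKM and 4 genes with means of 2.13 to 5.01 FPKM in WT. The 5 genes together held 94.3% ± 0.451 of the summed FPKM of the 9 genes in nf-yc11 and 94.3% ± 0.436 in WT (SD, n = 3 each). The limit of detection, taken as 3 reads, was at most 0.222 FPKM for any of the 9 genes and covers counting error only, so the 4 low genes were low but detected. They had 29 to 139 reads in a library, against 259 to 2230 reads for the 5 others.

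The most abundant of the 9 was OS03G0174900, with 71.0, 75.3 and 73.3 FPKM in the nf-yc11 libraries and 80.8, 78.7 and 78.6 FPKM in the WT libraries. In WT it stood above 93.5% of the 22093 features that averaged at least 1 FPKM. It took 36.0% ± 0.620 of the NF-YA sum in nf-yc11 and 38.2% ± 0.259 in WT (SD, n = 3 each). In WT the next were OS03G0696300, at 37.7 ± 1.29 FPKM, and OS03G0411100, at 36.2 ± 0.803 FPKM, and the values of these neighbours overlapped. OS07G0608200 (23.0 ± 2.11 FPKM) and OS08G0196700 (19.6 ± 0.396 FPKM) followed, and their WT values did not overlap. OS12G0613000 stood well below them at 5.01 ± 0.465 FPKM. At the low end OS03G0647600 (2.57 ± 0.0880 FPKM), OS12G0618600 (2.15 ± 0.374 FPKM) and OS07G0158500 (2.13 ± 0.684 FPKM) overlapped with one another.

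**Figure D1:**
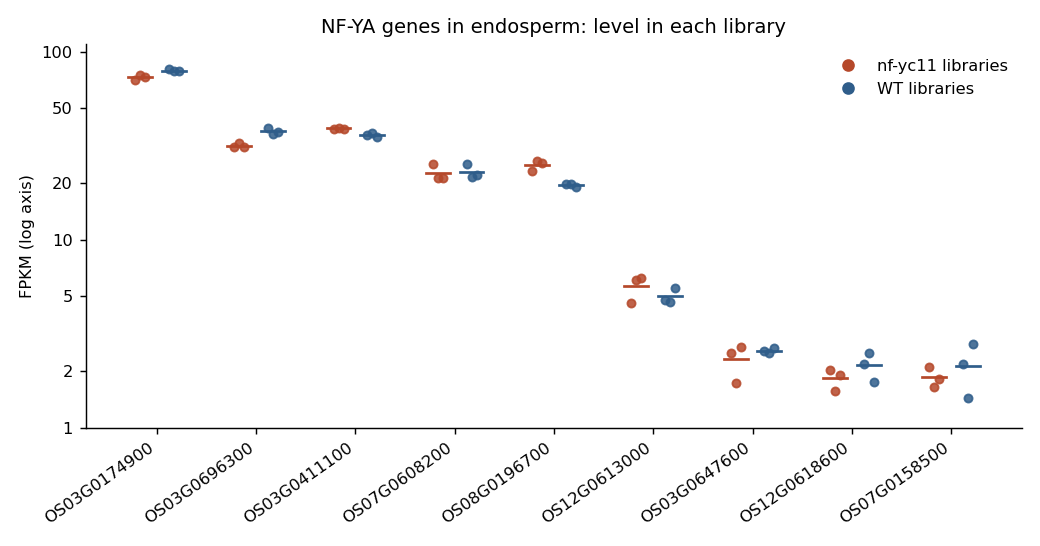
FPKM of the 9 NF-YA genes in each library on a log axis, with nf-yc11 libraries in orange and WT libraries in blue, and a line at the mean of each genotype. Of the 9 genes, 5 lie near or above 20 FPKM and 4 lie between 1 and 7 FPKM, and the genotypes are apart for OS03G0174900, OS03G0696300, OS03G0411100 and OS08G0196700.

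Between the genotypes the family did not move one way. By limma on log2(FPKM + 1), with Benjamini-Hochberg adjustment over 22093 features, 2 of the 9 genes rose in nf-yc11 (OS08G0196700 and OS03G0411100, the second reversed with quantile normalization), 2 fell and 5 did not pass at an adjusted p under 0.05. Of all features tested 49.1% were called by this rule, 29.8% higher and 19.3% lower, so 4 of 9 is near the background. The count was 2, OS08G0196700 higher and OS03G0696300 lower, without the variance trend and without any 1 library other than nf-yc11 replicate 2, whose absence gave 3. Those 4 genes were also the ones whose libraries did not overlap between genotypes, which held for 59.7% of all features, 35.3% higher and 24.4% lower. The changes were small. The median log2 change of the 9 genes was −0.11 and the median size 0.12, against 0.06 and 0.26 over all features. Changes on this scale understate those of the low genes. The labels leave unsaid whether each library came from its own plants, and the p-values rest on the spread between libraries alone, which may be technical.

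OS08G0196700 rose. It had 23.2, 26.4 and 25.5 FPKM in nf-yc11 and 19.7, 19.9 and 19.1 FPKM in WT, so that every nf-yc11 library was above every WT library. The mean was 1.28-fold higher in nf-yc11 (log2 change 0.34 ± 0.06 SE, adjusted p = 0.00302, limma). On the deposited scale this was the largest change of the 9 genes, and larger than that of 60.3% of all features tested. With the median of ratios, quantile normalization or a total that leaves out the 100 most abundant features, that of OS03G0696300 was larger (−0.31 against 0.27, −0.34 against 0.25 and −0.30 against 0.28). Behind it were 338 to 402 reads in the nf-yc11 libraries and 259 to 402 reads in the WT libraries.

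OS03G0696300 fell. It had 31.2, 32.6 and 31.2 FPKM in nf-yc11, against 39.2, 36.7 and 37.3 FPKM in WT, with all nf-yc11 libraries below all WT libraries. The mean was 1.19-fold lower in nf-yc11 (log2 change −0.25 ± 0.04 SE, adjusted p = 0.00326, limma). The calls of OS08G0196700 and OS03G0696300 held under each of 16 alternative settings, which include other scalings between libraries and leaving out each library.

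OS03G0174900 also fell, by less. Its nf-yc11 mean of 73.2 ± 2.14 FPKM was 7.82% below its WT mean of 79.4 ± 1.25 FPKM (SD, n = 3 each; log2 change −0.12 ± 0.03 SE, adjusted p = 0.0299, limma). The gap between the highest nf-yc11 library, 75.3 FPKM, and the lowest WT library, 78.6 FPKM, was narrow. Its call ended without nf-yc11 replicate 1 (adjusted p = 0.0750), nf-yc11 replicate 3 (0.0762), WT replicate 1 (0.0975), WT replicate 2 (0.0683) or WT replicate 3 (0.0604), all by limma. It also ended without the variance trend (0.0926), whereas the median of ratios, quantile normalization and the total without the 100 most abundant features kept it.

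OS03G0411100 rose on the deposited scale, but its call depended on the scaling. It had 39.0, 39.3 and 39.0 FPKM in nf-yc11, against 36.3, 36.9 and 35.3 FPKM in WT, a mean 1.08-fold higher in nf-yc11 (log2 change 0.11 ± 0.04 SE, adjusted p = 0.0404, limma). The 3 nf-yc11 values differed by less than counting error would give, with a coefficient of variation of 0.438% against 3.15% from the reads alone. With size factors by the median of ratios the change was 0.04 (adjusted p = 0.375, limma). With a library total that leaves out the 100 most abundant features it was 0.05 (adjusted p = 0.260). With quantile normalization it was −0.0014, the other direction (adjusted p = 0.978). The call also ended when any 1 of the 6 libraries was left out, with adjusted p of 0.0624 to 0.115 (limma).

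**Figure D2:**
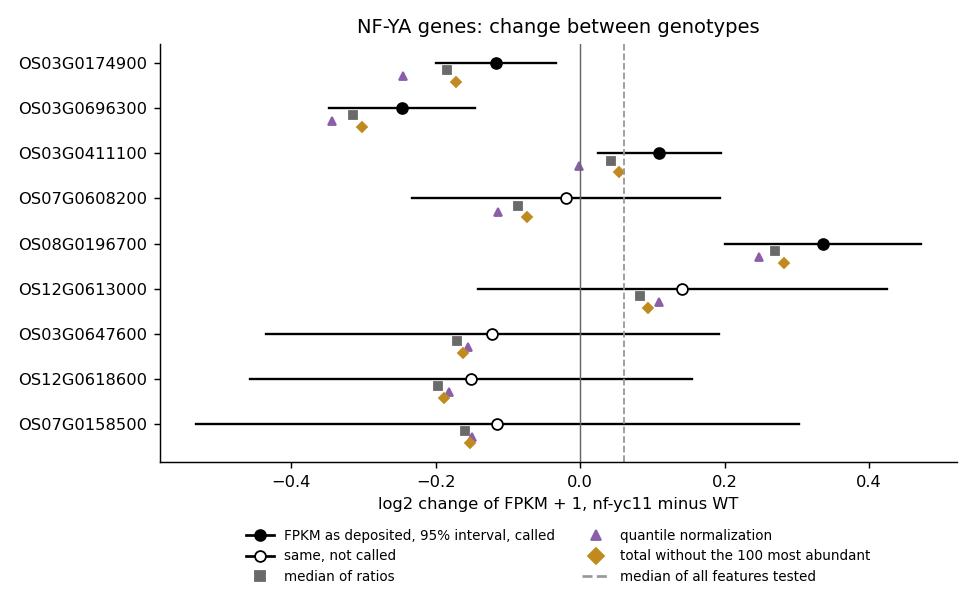
Log2 change of FPKM + 1 (nf-yc11 minus WT) of the 9 NF-YA genes. Black points and lines give the deposited scale with its 95% interval, filled where the adjusted p was under 0.05, the coloured marks give other scalings, and the dashed line marks the median of all features, 0.06. OS08G0196700 stays right of 0 and OS03G0696300 left of 0 under each scaling drawn, whereas OS03G0411100 lies near 0 with quantile normalization.

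A ratio of genes within a library is the same whatever single factor scales that library. The ratio of OS08G0196700 to OS03G0696300 was 0.743, 0.809 and 0.819 in nf-yc11, against 0.503, 0.542 and 0.513 in WT. The ratio of OS03G0411100 to OS03G0174900 was 0.550, 0.522 and 0.532 in nf-yc11, against 0.449, 0.469 and 0.449 in WT. In both cases the genotypes did not overlap, which followed from the levels above and is not a separate test. Each ratio sets a gene with every nf-yc11 library above WT over a gene with every nf-yc11 library below WT. The members of these pairs thus changed unequally whatever single factor scales a library. The order of the levels also differed. OS03G0411100 stood above OS03G0696300 in nf-yc11, at 1.24 ± 0.0265 times its level, and the values of this pair overlapped in WT, at 0.959 ± 0.0419 times (SD, n = 3 each). OS08G0196700 and OS07G0608200 overlapped in nf-yc11, where their means were 25.0 and 22.7 FPKM, and were apart in WT, where OS07G0608200 was the higher. The ratio of this pair itself overlapped between the genotypes, at 0.912, 1.232 and 1.195 in nf-yc11 and 0.776, 0.927 and 0.863 in WT.

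**Figure D3:**
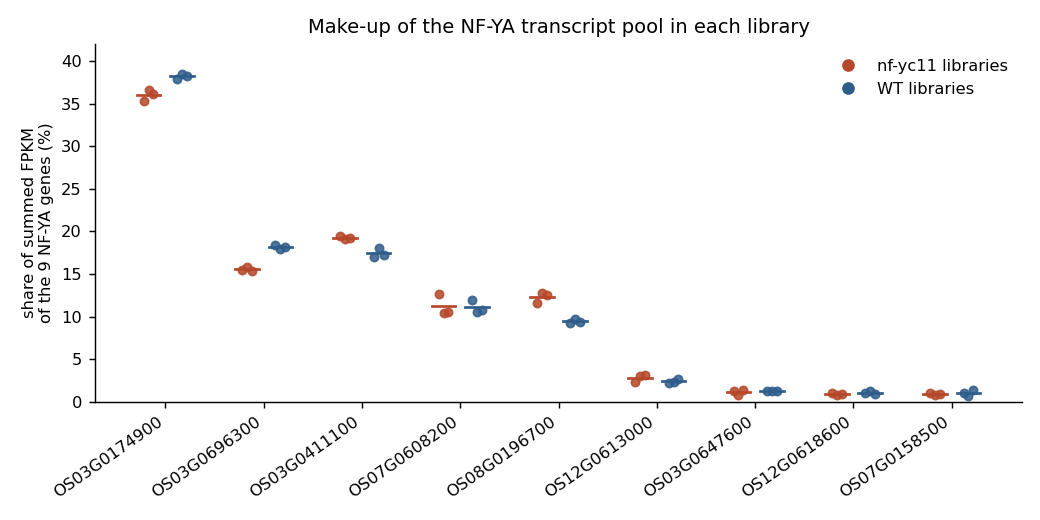
Share of the summed FPKM of the 9 NF-YA genes held by each gene, in percent, in the nf-yc11 libraries (orange) and the WT libraries (blue), with a line at each mean. OS08G0196700 takes 11.5% to 12.8% in nf-yc11 and 9.26% to 9.72% in WT, and OS03G0696300 takes 15.4% to 15.8% in nf-yc11 and 17.9% to 18.4% in WT.

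The other 5 genes did not pass, which does not show that they were equal in the genotypes. OS07G0608200 had 25.4, 21.4 and 21.4 FPKM in nf-yc11 and 25.4, 21.5 and 22.2 FPKM in WT. In each genotype 1 library, that numbered 1, stood above the other two, and the spread of 10.2% in nf-yc11 and 9.16% in WT was wider than the 4.39% and 4.18% that counting error gives. Its log2 change was −0.02, with a 95% interval of −0.23 to 0.19 (adjusted p = 0.872, limma).

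OS12G0613000 had 4.60, 6.12 and 6.24 FPKM in nf-yc11 and 4.79, 4.69 and 5.54 FPKM in WT, with 2 of 3 nf-yc11 libraries above all WT libraries. Its log2 change was 0.14 (95% interval −0.14 to 0.42, adjusted p = 0.362, limma). OS03G0647600 had 2.50, 1.73 and 2.69 FPKM in nf-yc11 and 2.55, 2.49 and 2.66 FPKM in WT, so that nf-yc11 replicate 2 alone was low. OS12G0618600 had 2.02, 1.57 and 1.90 FPKM in nf-yc11, within reach of its 2.19, 2.50 and 1.76 FPKM in WT. OS07G0158500 had 2.11, 1.64 and 1.81 FPKM in nf-yc11 and 2.17, 1.43 and 2.80 FPKM in WT, where 29 to 62 reads stood behind a value and the spread was 32.1%. For OS03G0647600, OS12G0618600 and OS07G0158500 the log2 changes were −0.12, −0.15 and −0.11. Their 95% intervals were −0.44 to 0.19 for OS03G0647600, −0.46 to 0.15 for OS12G0618600 and −0.53 to 0.30 for OS07G0158500.

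The partner subunits were measured beside the family. From a list of 10 NF-YB and 8 NF-YC genes, written from general knowledge of rice genes with earlier results of these data known, 16 were tested. Of these, 3 rose in nf-yc11, 8 fell and 5 did not pass, beside a background of 49.1% of features called, 29.8% higher and 19.3% lower. With the median of ratios, quantile normalization or the total without the 100 most abundant features, 2 rose and 9 fell. By subunit and as deposited, 1 of 8 NF-YB genes rose and 3 fell, and 2 of 8 NF-YC genes rose and 5 fell. The remaining NF-YB genes, OS08G0174500 and OS01G0935200, had at most 1 read in a library. On the log2(FPKM + 1) scale the median size of the change was 0.12 for NF-YA, 0.16 for the NF-YB list and 0.59 for the NF-YC list, and the largest was 0.34 for the 9 NF-YA genes, 0.87 for NF-YB and 1.97 for NF-YC. OS10G0397900, a further NF-YA gene outside the list, changed by −0.71 on this scale.

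The largest falls among the partners on this scale were those of the most abundant gene of each class, the endosperm subunits NF-YC12 and NF-YB1. By the fold of mean FPKM, a low NF-YB gene fell more than NF-YB1. It was 2.10-fold lower, at 2.13 FPKM in nf-yc11 and 4.46 FPKM in WT, against 1.83-fold for NF-YB1. NF-YC12 (OS10G0191900) averaged 192 ± 1.41 FPKM in nf-yc11 and 755 ± 12.1 FPKM in WT, and NF-YB1 (OS02G0725900) averaged 239.5 ± 4.42 FPKM in nf-yc11 and 439 ± 14.7 FPKM in WT (SD, n = 3 each). Their adjusted p-values were 1.92e-07 and 7.93e-06 (limma). OS01G0102400, an NF-YC gene, had the third smallest adjusted p and averaged 13.7 ± 0.637 FPKM in nf-yc11 and 22.2 ± 1.45 FPKM in WT (adjusted p = 0.000262, limma). No NF-YA gene among the 9 changed as much as any of these.

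Summed over the 9 listed genes, NF-YA was at 201, 206 and 203 FPKM in nf-yc11 and at 213, 205 and 205 FPKM in WT. The genotypes overlapped. This overlap rests on the deposited scale: with size factors by the median of ratios the sums were 194.2, 201.1 and 196.8 in nf-yc11 and 217.2, 209.0 and 208.5 in WT, which do not overlap. The NF-YB list summed to 416 ± 10.2 FPKM in nf-yc11 and 619 ± 14.9 FPKM in WT, and the NF-YC list to 436 ± 2.30 FPKM in nf-yc11 and 1011 ± 13.1 FPKM in WT (SD, n = 3 each). The sum of the 9 NF-YA genes was therefore 0.466 ± 0.00583 of the NF-YC sum in nf-yc11 and 0.206 ± 0.00725 in WT. This ratio does not change with a single factor per library, and it leaves out OS10G0397900. In FPKM, the lower NF-YC and NF-YB sums lay mostly in NF-YC12 and NF-YB1. Without NF-YC11 and NF-YC12 the NF-YC list summed to 134 ± 2.76 FPKM in nf-yc11 and 130.3 ± 0.434 FPKM in WT. On the deposited scale these sums did not overlap (132.2 to 137.0 FPKM in nf-yc11, 129.8 to 130.7 FPKM in WT). They were not computed with other scalings, under which overlap can change, as it did for the NF-YA sum. They join genes that moved in opposite directions, among them the 2 NF-YC genes called higher and OS01G0102400, which was among those called lower. Without NF-YB1 the NF-YB list summed to 176 ± 7.39 FPKM in nf-yc11 and 180.0 ± 4.22 FPKM in WT. These values overlapped on the deposited scale, and they too were not computed with other scalings.

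**Figure D4:**
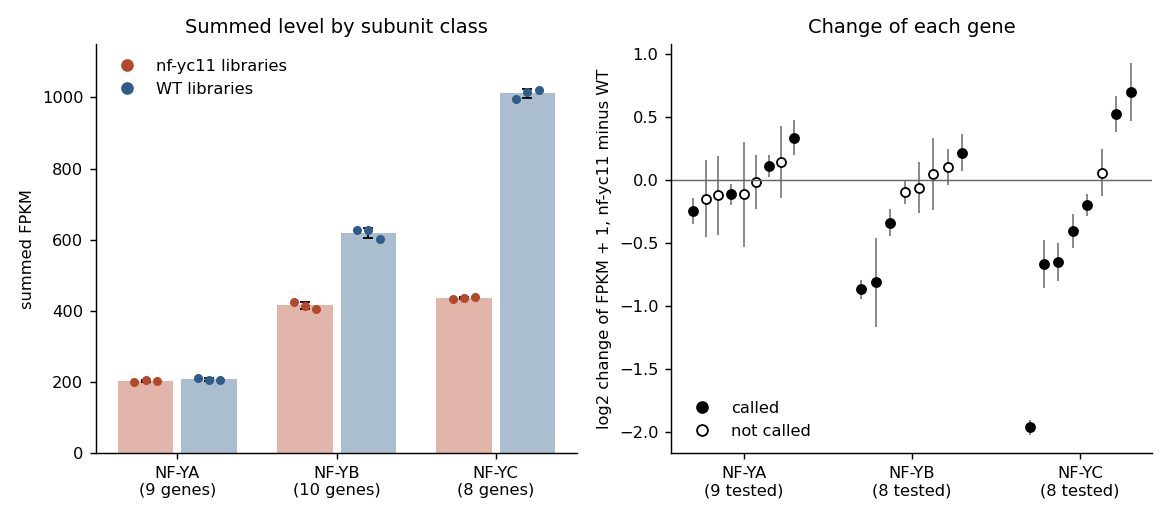
Left, summed FPKM of the NF-YA genes and of the NF-YB and NF-YC lists, with bars for the mean of 3 libraries, whiskers for the SD and points for single libraries, nf-yc11 in orange and WT in blue. Right, log2 change of each tested gene (nf-yc11 minus WT) with its 95% interval, filled where called. The NF-YA genes lie between −0.25 and 0.34, whereas the NF-YC list reaches −1.97.

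The NF-YA sum covers the listed genes alone. OS10G0397900, which general knowledge of rice genes also places in the NF-YA family, was outside the list of 10 and was added after its values were seen. It had 82.9, 85.1 and 84.6 FPKM in nf-yc11, against 134, 143 and 138 FPKM in WT, more than any of the 9 genes in either genotype. With it the class summed to 287.5 ± 3.58 FPKM in nf-yc11 and 346 ± 2.18 FPKM in WT (SD, n = 3 each), and the genotypes did not overlap on the deposited scale.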

How the data were processed

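RNA was sequenced from 3 nf-yc11 and 3 WT endosperm libraries, grouped by the labels. The authors deposited their FPKM values as 1 table with 6 columns. CASAVA 1.7, HISAT2 2.0.5 and DESeq are named, per the submitters' processing notes, without saying what each was used for. Read counter, genome build and annotation were not given in the sources used here. No coordinates are printed. Whole reads and feature lengths were recovered for 36189 of 36189 features above 0, from the steps of the FPKM values, by a search tested on simulated data.

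Features that averaged at least 1 FPKM were tested in R 4.3.3 with limma 3.58.1, trend included, after the transform log2(FPKM + 1) and without further scaling, with Benjamini-Hochberg adjustment. This also was tested on simulated data. With 3 libraries a genotype, an exact permutation test has a smallest two-sided p of 0.1. No set was tested, since the members were listed by name. The levels of all listed NF-YA genes are given. NF-YC11, the most abundant partner of each class and up to 3 partners with the smallest adjusted p are named, and the others by count. GluA1, GluA2, OSH1, OS08G0174500 and OS01G0935200 are also named, chosen after their values were seen. Gene members and lists were chosen with earlier results of these data known. Alternatives were another pseudocount, filter, scaling or variance trend, voom on recovered reads, RAP IDs only, the replicate number as a block, and leaving out each library. Python 3.11.15 with numpy 2.4.6, pandas 2.3.3 and matplotlib 3.10.9 was used.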

Additional observations from a re-analysis of the deposited data

How the results depend on the processing

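The number of NF-YA genes called, 4 in the results above (2 higher, 2 lower), was 4 with a pseudocount of 0.1, no filter on low values, a minimum of 5 FPKM or voom on the recovered reads. It was 3 with RAP gene IDs only, the median of ratios, a total that leaves out the 100 most abundant features, or quantile normalization, and 2 without the variance trend. Leaving out 1 library gave 2 to 3. The replicate block gave 2, ending the calls of OS03G0174900 (adjusted p = 0.0681, limma) and OS03G0411100 (0.0774). Libraries of the same number had deviations from their genotype means that correlated at −0.0505, 0.0042 and −0.0477, so the numbers were not shown to pair the libraries. The direction of OS03G0411100 reversed with quantile normalization (−0.0014). When 1 library was left out, the log2 change ranged from −0.099 to 0.051 for OS07G0608200, from −0.21 to 0.012 for OS03G0647600 and from −0.29 to 0.036 for OS07G0158500, all without a call. The cause was not tested. The partner list had 9 to 11 genes called under the alternatives, and all features 8320 to 11696. The split of the partner list, 3 higher and 8 lower as deposited, was 2 and 9 with the median of ratios. It was also 2 and 9 with quantile normalization and with the total without the 100 most abundant. The split of all features depended on the scaling: 6586 higher and 4256 lower as deposited, 5522 and 5211 with the median of ratios, 5403 and 5273 with quantile normalization and 5703 and 5018 with the total without the 100 most abundant. Of the 9 genes, 9 stood above 0.5 FPKM and 6 above 5 FPKM in WT. The 4 low genes had 29 to 139 reads a library, and what limits their tests was not tested.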

Other observations

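OS10G0397900, the further NF-YA gene by general knowledge of rice genes, was 1.64-fold lower in nf-yc11 (log2 change −0.71 ± 0.03 SE, adjusted p = 1.97e-05, limma), a larger change than that of 88.0% of all features tested. It held 29.3% ± 0.123 of the sum over the 10 genes, itself included, in nf-yc11 and 40.0% ± 1.29 in WT (SD, n = 3 each). It was chosen after its values were seen.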
